A study of Mus musculus with 6 samples.

Results

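The inflammasome, pyroptosis and necroptosis genes examined here were 9 genes listed by symbol, Nlrp3, Aim2, Nek7, Pycard, Casp1, Casp4, Gsdmd, Ripk3 and Mlkl, and each matched 1 row among the 30914 genes of the deposited expression table. RNA was sequenced from the hearts of 6 wild-type male C57BL/6J mice, 3 in the Ang II group and 3 in the Ang II + Tec group. Every mouse, 8 weeks old at the start, was infused with angiotensin II (Ang II) by osmotic pump at 1 μg/kg/min for 4 weeks, and the Ang II + Tec group also received the flavonoid tectochrysin (Tec) at 5 mg/kg over the last 2 weeks. Since both groups received Ang II, the comparison addressed what Tec changed in hearts under Ang II, and hearts without Ang II were not analysed here. Expression was given as FPKM, the fragments of a gene relative to its transcript length and to the total of mapped fragments in the library. The labelled tissue was checked against 9 cardiomyocyte markers, all of which were detected in all 6 libraries, with a mean of 3626 FPKM for the most abundant, Actc1.

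An inflammasome is a protein complex in which a sensor that has met a danger signal recruits an adaptor, and the adaptor gathers and activates the protease caspase-1. Caspase-1 matures the cytokines IL-1β and IL-18 and cleaves gasdermin D, whose freed end forms pores in the cell membrane, a lytic death called pyroptosis, whereas necroptosis ends in membrane damage by MLKL after its phosphorylation by RIPK3. Most of these steps are controlled at the protein level, by assembly, cleavage or phosphorylation, which RNA levels do not show.

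All 9 genes had a lower mean FPKM in the Ang II + Tec group, and in Ang II replicates 1 and 2 each of the 9 was above all 3 Ang II + Tec libraries. Ang II replicate 3 was the lowest of its group in 8 of the 9, and it lay above every Ang II + Tec library in 4 of them, Nlrp3, Pycard, Ripk3 and Mlkl. The largest ratios between the group means were those of Mlkl (2.42), Pycard (2.05) and Ripk3 (2.04), and the smallest was that of Nek7 (1.13). These directions were common in the table. Of the 13089 genes with at least 0.5 FPKM in at least 3 libraries, which were the genes tested, 80% had a lower mean with Tec, 18.9% were lower with Tec without overlap between the groups, and 53.7% were higher in both Ang II replicates 1 and 2 than in all 3 Ang II + Tec libraries.

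Of the 9 genes, 7 reached the limit for testing, and Nlrp3 and Aim2 did not. None of the 7 was differentially expressed in limma, which required an adjusted p-value (Benjamini-Hochberg) under 0.05 with a log2 fold change of 1 or more in either direction, a rule that 0.16% of the tested genes met. At an unadjusted p-value under 0.05, 3 of the 7 were lower with Tec (Pycard, Mlkl and Ripk3), beside 16.5% of all tested genes. The median log2 fold change was -0.33 over the 7 genes and -0.17 over all tested genes. All log2 fold changes are differences in the mean of log2(FPKM + 1), a scale on which the change of genes with low FPKM is understated. The limma p-values set the difference between the groups against the spread between hearts within them, moderated over all tested genes, and cover these 6 hearts only.

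**Figure D1:**
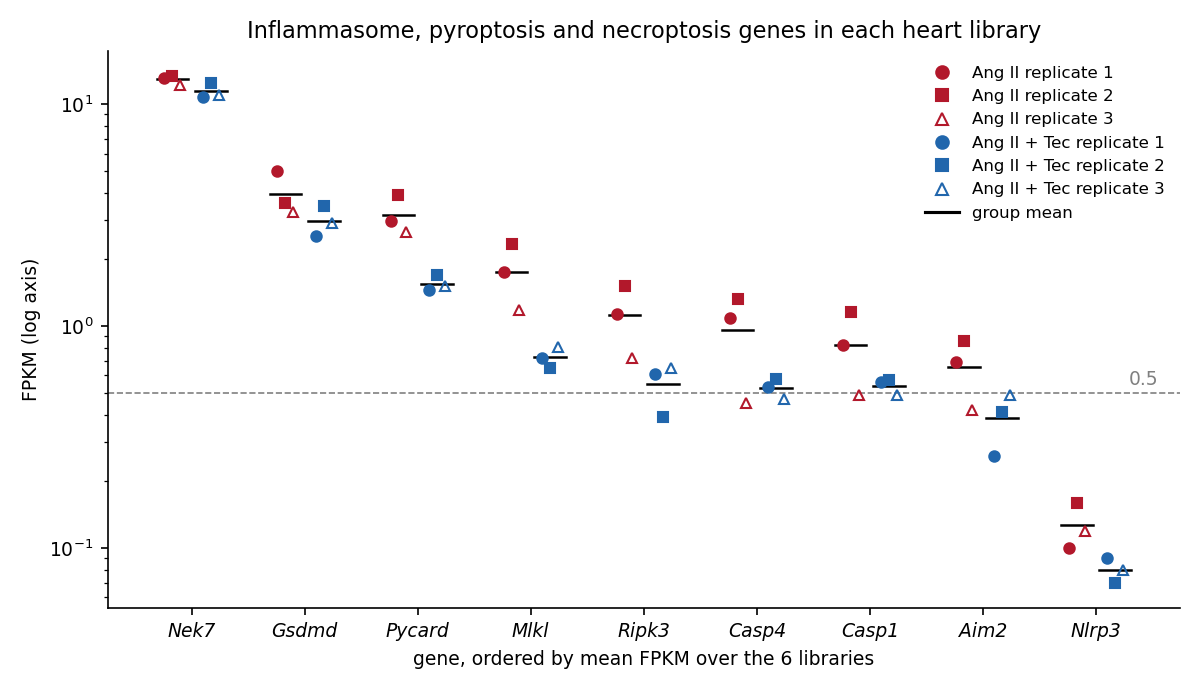
FPKM on a log axis of the 9 genes in each of the 6 libraries, with 1 symbol per library and a black line at each group mean; the dashed line marks the 0.5 FPKM used in the limit for testing. The groups do not overlap in Nlrp3, Pycard, Ripk3 and Mlkl, whereas the open red triangle of Ang II replicate 3 is below the highest Ang II + Tec library in Casp1, Casp4, Gsdmd, Aim2 and Nek7.

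Among the sensors, Nlrp3 (ENSMUSG00000032691, chromosome 11 from 59541568 to 59566956) encodes the sensor that responds to potassium loss and other signs of cell damage. Its FPKM was 0.1, 0.16 and 0.12 in Ang II replicates 1 to 3 and 0.09, 0.07 and 0.08 in Ang II + Tec replicates 1 to 3. All Ang II libraries were above all Ang II + Tec libraries, but the nearest libraries, Ang II replicate 1 and Ang II + Tec replicate 1, were only 0.01 FPKM apart, which is the smallest step the table can show. The group means were 0.127 ± 0.0306 (SD, n = 3) and 0.08 ± 0.01 FPKM (SD, n = 3). The exact permutation test, 2-sided, gave p = 0.1, the smallest p-value that 3 hearts against 3 allow. In each library the commonest low value of FPKM times length, within a set range, was found among single-exon genes of 150 to 400 bases. If that value is 1 fragment, and the transcript is the longest coding one in the table (4021 bases), Nlrp3 would stand for about 11 to 20 fragments in each library. Nlrp3 RNA was thus scarce in the hearts of both groups.

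Aim2 (ENSMUSG00000037860, chromosome 1 from 173350879 to 173466040) encodes the sensor of double-stranded DNA in the cytosol. Its FPKM was 0.69, 0.86 and 0.42 in the Ang II libraries and 0.26, 0.41 and 0.49 in those with Tec. Ang II replicates 1 and 2 were high, Ang II replicate 3 fell between Ang II + Tec replicates 2 and 3, and the groups overlapped. The means were 0.657 ± 0.222 (SD, n = 3) and 0.387 ± 0.117 FPKM (SD, n = 3), with p = 0.2 in the exact permutation test. On the opposite strand the annotated gene overlaps Cadm3, which had a mean of 0.245 FPKM, and since no source used here states that strand entered the counting, fragments of the shared stretch may belong to either gene.

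Nek7 (ENSMUSG00000026393, chromosome 1 from 138482875 to 138620141) encodes the kinase that binds NLRP3 and bridges its subunits when the complex forms, besides its role in mitosis. It had the highest FPKM of the 9 genes, with 13.2, 13.4 and 12.2 in the Ang II libraries and 10.8, 12.5 and 11 in those with Tec. Ang II + Tec replicate 2 was above Ang II replicate 3, so the groups overlapped. The log2 fold change was -0.17 (standard error, SE, 0.11), equal to the median of all tested genes, with an adjusted p-value of 0.404 in limma with Benjamini-Hochberg adjustment. Its sign turned to 0.061 under median-ratio scaling, in which the FPKM of a library were divided by their median ratio to the geometric mean over libraries, and to 0.055 after quantile normalization.

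Pycard (ENSMUSG00000030793, chromosome 7 from 127989708 to 127993867) encodes the adaptor ASC, which links NLRP3 or AIM2 to caspase-1. Its FPKM was 2.99, 3.92 and 2.65 in the Ang II libraries and 1.45, 1.7 and 1.51 in those with Tec. Every Ang II library was high and every Ang II + Tec library low, and the gap between the nearest of them was wider than the range within the Ang II + Tec group. The means were 3.19 ± 0.657 (SD, n = 3) and 1.55 ± 0.131 FPKM (SD, n = 3), so the level with Tec was 48.7% of that without. The log2 fold change was -0.70 (SE 0.14, 95% interval -1.03 to -0.37), with a p-value of 0.00136 in limma and an adjusted p-value of 0.175. Of all tested genes, 4.04% had a lower log2 fold change. The difference of Pycard from the median of all tested genes was -0.54, and under median-ratio scaling its log2 fold change was -0.53, with an unadjusted limma p-value of 0.0006.

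Casp1 (ENSMUSG00000025888, chromosome 9 from 5298508 to 5307290) encodes caspase-1, the protease of the inflammasome. Its FPKM was 0.82, 1.16 and 0.49 in the Ang II libraries and 0.56, 0.57 and 0.49 in those with Tec. Ang II replicate 3 was as low as the lowest Ang II + Tec library, and only Ang II replicates 1 and 2 stood apart. The means were 0.823 ± 0.335 (SD, n = 3) and 0.54 ± 0.0436 FPKM (SD, n = 3), and the spread within the Ang II group exceeded the difference between them. The log2 fold change was -0.23 (SE 0.15), with an adjusted p-value of 0.389 in limma with Benjamini-Hochberg adjustment.

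Casp4 (ENSMUSG00000033538, chromosome 9 from 5308828 to 5336783) encodes mouse caspase-11, which binds bacterial lipopolysaccharide in the cytosol and cleaves gasdermin D without an inflammasome sensor. Its FPKM was 1.09, 1.33 and 0.45 in the Ang II libraries and 0.53, 0.58 and 0.47 in those with Tec. Ang II replicate 3 was the lowest of all 6 libraries, while Ang II replicates 1 and 2 were the highest. The means were 0.957 ± 0.455 (SD, n = 3) and 0.527 ± 0.0551 FPKM (SD, n = 3), with a log2 fold change of -0.33 (SE 0.18) and an adjusted p-value of 0.33 in limma. Leaving out Ang II replicate 3 gave a log2 fold change of -0.53 and an adjusted p-value of 0.0151 (limma), in a fit in which 28.8% of all tested genes had an adjusted p-value under 0.05.

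Casp1 and Casp4 are neighbours on chromosome 9, on the same strand, with 1537 bases between them in the coordinates of the table. Over the 6 libraries their values of log2(FPKM + 1) had a Pearson correlation of 0.98, the highest of any pair among the 7 tested genes. The ratio of Casp4 to Casp1 in FPKM was 1.33, 1.15 and 0.918 in the Ang II libraries and 0.946, 1.02 and 0.959 in those with Tec, highest in Ang II replicates 1 and 2. By the estimate used for Nlrp3, Casp1 would stand for about 24 to 55 fragments per library and Casp4 for about 21 to 61. The ratios thus rest on few fragments, and their differences were not tested. Casp12, the next caspase gene on that strand after Casp4, 8646 bases on, was singled out after its values were seen. It had 4.84, 6.62 and 2.09 FPKM in the Ang II libraries and 2.38, 3.11 and 2.2 FPKM in those with Tec. The 3 neighbouring caspase genes thus had the same order of libraries at the top, with Ang II replicate 2 first and Ang II replicate 1 after it, as did 34.2% of all tested genes, and Ang II replicate 3 at or below the lowest Ang II + Tec library, and 5.33% had both features.

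Gsdmd (ENSMUSG00000022575, chromosome 15 from 75862327 to 75867408) encodes gasdermin D, the pore-forming protein that carries out pyroptosis. Its FPKM was 5.02, 3.58 and 3.26 in the Ang II libraries and 2.54, 3.49 and 2.92 in those with Tec. Ang II replicate 1 was high, and the other 5 libraries lay together, with Ang II + Tec replicate 2 between Ang II replicates 2 and 3. The means were 3.95 ± 0.938 (SD, n = 3) and 2.98 ± 0.478 FPKM (SD, n = 3), with a log2 fold change of -0.30 (SE 0.17) and an adjusted p-value of 0.334 in limma. Gsdmd was also the only one of the 9 genes in which Ang II replicate 1 was the highest library. The ratio of Gsdmd to Pycard was 1.68, 0.913 and 1.23 in the Ang II libraries and 1.75, 2.05 and 1.93 in those with Tec. The executor was thus higher per length than the adaptor in 5 of 6 libraries, and this ratio was higher in all Ang II + Tec libraries than in all Ang II libraries, a difference chosen after its values were seen and not tested.

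Of the necroptosis pair, Ripk3 (ENSMUSG00000022221, chromosome 14 from 55784995 to 55788865) encodes the kinase that assembles the necrosome and phosphorylates MLKL. Its FPKM was 1.13, 1.51 and 0.72 in the Ang II libraries and 0.61, 0.39 and 0.65 in those with Tec. The groups did not overlap, although Ang II replicate 3 was closer to the Ang II + Tec libraries than to the other libraries of its own group. The means were 1.12 ± 0.395 (SD, n = 3) and 0.55 ± 0.14 FPKM (SD, n = 3). The log2 fold change was -0.44 (SE 0.16, 95% interval -0.81 to -0.068), with a p-value of 0.0262 in limma and an adjusted p-value of 0.234. Under median-ratio scaling the log2 fold change was -0.32, with an unadjusted limma p-value of 0.0529, so Ripk3 then left the genes at an unadjusted p-value under 0.05.

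Mlkl (ENSMUSG00000012519, chromosome 8 from 111311797 to 111338177) encodes the pseudokinase that permeabilises the membrane in necroptosis. Its FPKM was 1.76, 2.34 and 1.18 in the Ang II libraries and 0.72, 0.65 and 0.81 in those with Tec. The Ang II + Tec libraries lay close together and below all Ang II libraries, among which replicate 3 was the lowest. The means were 1.76 ± 0.58 (SD, n = 3) and 0.727 ± 0.0802 FPKM (SD, n = 3), so the level with Tec was 41.3% of that without, the lowest such share of the 9 genes. The log2 fold change was -0.66 (SE 0.16, 95% interval -1.04 to -0.27), with a p-value of 0.00477 in limma and an adjusted p-value of 0.201. Under median-ratio scaling it was -0.51, with an unadjusted limma p-value of 0.00459. The ratio of Mlkl to Ripk3 was 1.56, 1.55 and 1.64 in the Ang II libraries and 1.18, 1.67 and 1.25 in those with Tec, with Mlkl above Ripk3 in every heart.

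The counts moved with the scaling and with single libraries. Median-ratio scaling brought the median over all tested genes from -0.17 to 0.0087 and the median over the 7 genes from -0.33 to -0.22. Pycard and Mlkl then remained at an unadjusted limma p-value under 0.05, beside 7.9% of all tested genes in that direction, and 6 of the 7 genes were lower with Tec, the exception being Nek7, beside 48.2% of all tested genes. Without Ang II replicate 3, 6 of the 7 genes had an unadjusted limma p-value under 0.05, and 4 of them (Pycard, Mlkl, Casp4 and Ripk3) had an adjusted p-value under 0.05 after Benjamini-Hochberg adjustment, the lowest being 0.00707 for Mlkl. In that fit the adjusted p-value was under 0.05 for 28.8% of all tested genes, and the unadjusted p-value was under 0.05, lower with Tec, for 39.3%. Leaving out Ang II replicate 1 or 2 left 2 of the 7 genes at an unadjusted p-value under 0.05, beside 6.29% and 7.64% of all tested genes, with lowest adjusted p-values of 0.65 and 0.439 (limma).

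**Figure D2:**
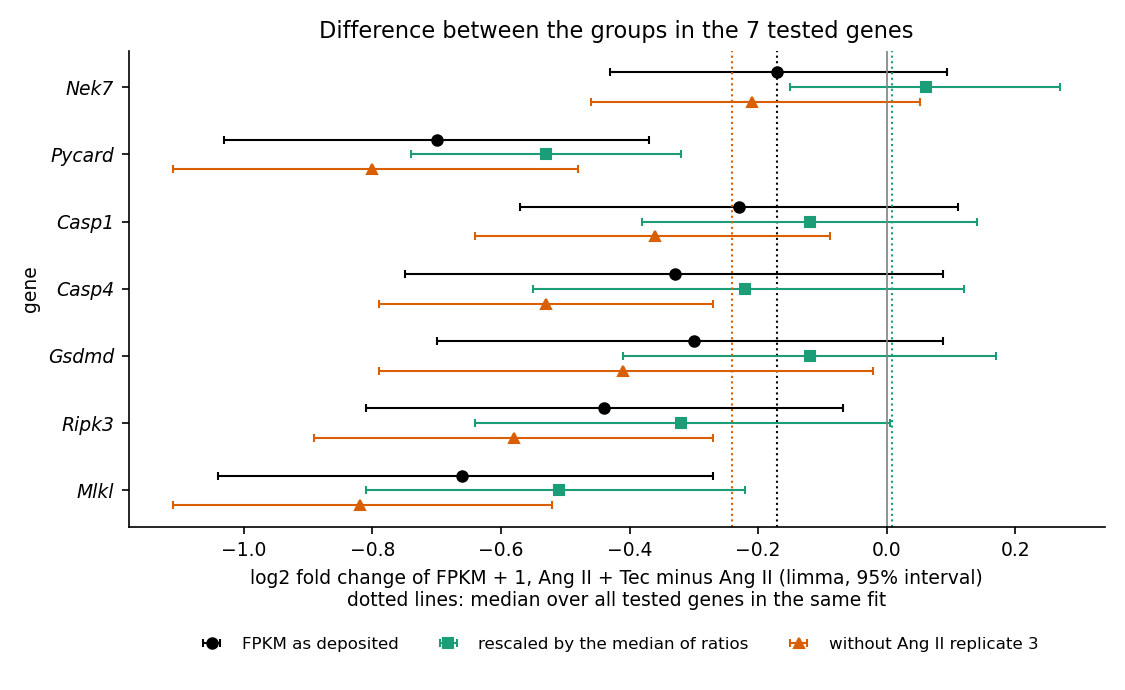
Log2 fold change of FPKM + 1 with its 95% interval from limma for the 7 tested genes, with the deposited FPKM (black), rescaled by the median of ratios, or median-ratio scaling (green) and without Ang II replicate 3 (orange); dotted lines in the same colours mark the median of all tested genes. The intervals of Pycard and Mlkl lie below their dotted line in each of the 3 fits, and Nek7 lies near its line in each.

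FPKM is a level per length, so the 9 genes could be ordered by it. The means over the 6 libraries were 12.2 FPKM for Nek7, 3.47 for Gsdmd, 2.37 for Pycard, 1.24 for Mlkl, 0.835 for Ripk3, 0.742 for Casp4, 0.682 for Casp1, 0.522 for Aim2 and 0.103 for Nlrp3. Nek7 was apart from Gsdmd, and Aim2 from Nlrp3, with ranges that did not overlap, while every other pair of neighbours in this order overlapped in range. Casp4 and Casp1 were the least distinct, with Casp4 higher in 3 of 6 libraries. The kinase partner was thus far above the adaptor and the executor, and the sensor NLRP3 was at the bottom. The sum over the 9 genes was 26.8, 28.3 and 21.4 FPKM in the Ang II libraries and 17.5, 20.4 and 18.4 FPKM in those with Tec. Nek7 made up 47.4% to 61.5% of this sum, and without it the sums were 13.6, 14.9 and 9.29 FPKM and 6.76, 7.86 and 7.42 FPKM. Both sums were higher in every Ang II library than in any Ang II + Tec library.

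The 7 tested genes varied together over the 6 libraries. Pearson correlations of log2(FPKM + 1) between the 21 pairs ranged from 0.50 to 0.98, with a median of 0.82, and they include the difference between the groups and the libraries' common shifts. The highest were those of Casp1 with Casp4 (0.98), of Ripk3 with Mlkl (0.97) and of Pycard with Mlkl (0.96). The lowest were those of Gsdmd with Ripk3 (0.50) and with Casp1 (0.51). Outside all lists, and without symbols that start with Gm and a digit or end in Rik, the 5 genes whose values were most like the mean standardised level of the 7 genes were Gramd3, Tpgs1, Ccdc43, Ptma and Slc31a1, with correlations of 0.998 or more over the 6 libraries. Such likeness was widespread, since 1634 of the 11505 genes examined in this way had a correlation of at least 0.95.

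The other genes of the pathway were taken from 5 lists, and none of their tested members had an adjusted p-value under 0.05 in limma with Benjamini-Hochberg adjustment. Of 15 other inflammasome sensors and adaptors, 4 were tested, all lower with Tec, as were 80% of all tested genes, with a median log2 fold change of -0.23 (-0.077 under median-ratio scaling) and 0 at an unadjusted limma p-value under 0.05, beside 16.5%. Nlrp1b, the sensor of anthrax lethal factor, was at 0.01 to 0.17 FPKM, and Nlrc4, which responds with NAIP proteins to bacterial flagellin, at 0.03 to 0.16 FPKM. Naip1 was listed at 0 in all 6 libraries. The most abundant gene of the list was Nlrp10, an NLR protein without the leucine-rich repeats of the family, with 5.1, 4.78 and 3.62 FPKM in the Ang II libraries and 3.74, 3.03 and 3.82 FPKM in those with Tec. Its groups overlapped, with a log2 fold change of -0.27 (SE 0.15). Card9, an adaptor of fungal recognition, had a log2 fold change of -0.25 (SE 0.11), without overlap between the groups.

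Of 21 genes for the priming and triggering of NLRP3, 20 were tested. Of these, 16 had a negative and 4 a positive log2 fold change, with a median of -0.22, and 80% of all tested genes were lower with Tec. Under median-ratio scaling 11 were lower, beside 48.2% of all tested genes, with a median of -0.037. At an unadjusted limma p-value under 0.05, 2 were lower with Tec, Cd14 and P2rx7, beside 16.5% of all tested genes, and 1 was higher, Txnip, beside 2.09%. Under median-ratio scaling 2 were lower and 4 higher, beside 7.9% and 7.56%. The calls of Cd14, P2rx7 and Txnip moved with single libraries. Their unadjusted limma p-values were 0.066, 0.0836 and 0.0705 without Ang II replicate 1, and 0.000213, 0.00257 and 0.00235 without Ang II replicate 3. Cd14, the co-receptor for lipopolysaccharide, had 5.42, 6.99 and 3.21 FPKM in the Ang II libraries and 2.66, 2.73 and 3.04 FPKM in those with Tec. The groups did not overlap, and the log2 fold change was -0.66 (SE 0.23, limma adjusted p-value 0.23). P2rx7, the ATP-gated channel whose opening lets potassium leave the cell, had 1.53, 1.96 and 0.91 FPKM in the Ang II libraries and 0.52, 0.98 and 0.71 FPKM in those with Tec. Ang II + Tec replicate 2 lay above Ang II replicate 3, and the log2 fold change was -0.49 (SE 0.18, limma adjusted p-value 0.24). Txnip, which encodes a thioredoxin-binding protein that can bind NLRP3, went the other way, with 170, 148 and 204 FPKM in the Ang II libraries and 245, 209 and 238 FPKM in those with Tec. Every Ang II + Tec library was above every Ang II library, and the log2 fold change was 0.41 (SE 0.15, limma adjusted p-value 0.234).

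Of 14 genes for the execution of pyroptosis and for membrane rupture or repair, 11 were matched by symbol and 9 tested. Of these, 8 were lower with Tec, beside 80% of all tested genes, with a median log2 fold change of -0.49. Under median-ratio scaling 7 were lower, beside 48.2%, with a median of -0.33. At an unadjusted limma p-value under 0.05, 5 of the 9 were lower with Tec, beside 16.5% of all tested genes, and 3 were under median-ratio scaling, beside 7.9%. Trim30a, which encodes a TRIM protein that restrains NLRP3 inflammasomes, had 4.21, 5.39 and 2.86 FPKM in the Ang II libraries and 2.06, 2.19 and 2.08 FPKM in those with Tec. Casp8, the protease that can cleave gasdermin D and that holds necroptosis in check, had 2.79, 3.68 and 1.75 FPKM in the Ang II libraries and 1.62, 1.29 and 1.18 FPKM in those with Tec. Neither gene overlapped between the groups, with log2 fold changes of -0.70 (SE 0.19, limma adjusted p-value 0.201) and -0.63 (SE 0.20, limma adjusted p-value 0.223). Gsdme, the gene of the pore-forming protein gasdermin E, was below the limit for testing, at 0.29 to 0.46 FPKM. Ninj1, which ruptures the membrane after pores have formed, was abundant, at 30.9 to 44.9 FPKM, and its log2 fold change of -0.24 (SE 0.14) turned to 0.0038 under median-ratio scaling.

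The cytokines that caspase-1 matures were scarce at the RNA level. Il1b had 0.09, 0.37 and 0 FPKM in the Ang II libraries and 0.15, 0.06 and 0.05 FPKM in those with Tec. Il18 had 0.21, 0.99 and 0.38 FPKM in the Ang II libraries and 0.24, 0.84 and 0.27 FPKM in those with Tec. In both genes Ang II replicate 2 was the highest library and the groups overlapped, with p = 0.8 for Il1b and p = 0.7 for Il18 in exact permutation tests. Il1rn, the gene of the IL-1 receptor antagonist, was at 0 to 0.06 FPKM. Of the 10 ligands, receptors and antagonists, 3 were tested, all lower with Tec, as were 80% of all tested genes, with a median log2 fold change of -0.39 (-0.20 under median-ratio scaling) and 0 at an unadjusted limma p-value under 0.05, beside 16.5%. These were Il1r1, the IL-1 receptor (-0.39, SE 0.24), its co-receptor Il1rap (-0.29, SE 0.17) and Il18bp, the soluble binder of IL-18 (-0.39, SE 0.22), and the groups overlapped in each.

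Of 20 further genes of necroptosis, 18 were tested. Lower with Tec were 17 of them, beside 80% of all tested genes, and 11 under median-ratio scaling, beside 48.2%. The median log2 fold changes of the list were -0.25 and -0.033. At an unadjusted limma p-value under 0.05, 5 were lower with Tec, beside 16.5% of all tested genes, and 4 were under median-ratio scaling, beside 7.9%. Zbp1, the sensor of Z-form nucleic acids that binds RIPK3, had 0.95, 1.36 and 0.54 FPKM in the Ang II libraries and 0.21, 0.26 and 0.34 FPKM in those with Tec. Every Ang II library was above every Ang II + Tec library, and the log2 fold change was -0.60 (SE 0.16, limma adjusted p-value 0.201). Zbp1 reached the limit for testing through the Ang II libraries alone, so its place among the 5, and among the 4 under median-ratio scaling, depended on its higher level there. Tlr3, the receptor for double-stranded RNA whose adaptor engages RIPK3, had a log2 fold change of -0.46 (SE 0.15), also without overlap. Ripk1, the kinase that recruits RIPK3 below death receptors, had 1.75, 2.06 and 1.1 FPKM in the Ang II libraries and 0.96, 1.32 and 1.28 FPKM in those with Tec. Its groups overlapped, with a log2 fold change of -0.26 (SE 0.16, limma adjusted p-value 0.387).

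**Figure D3:**
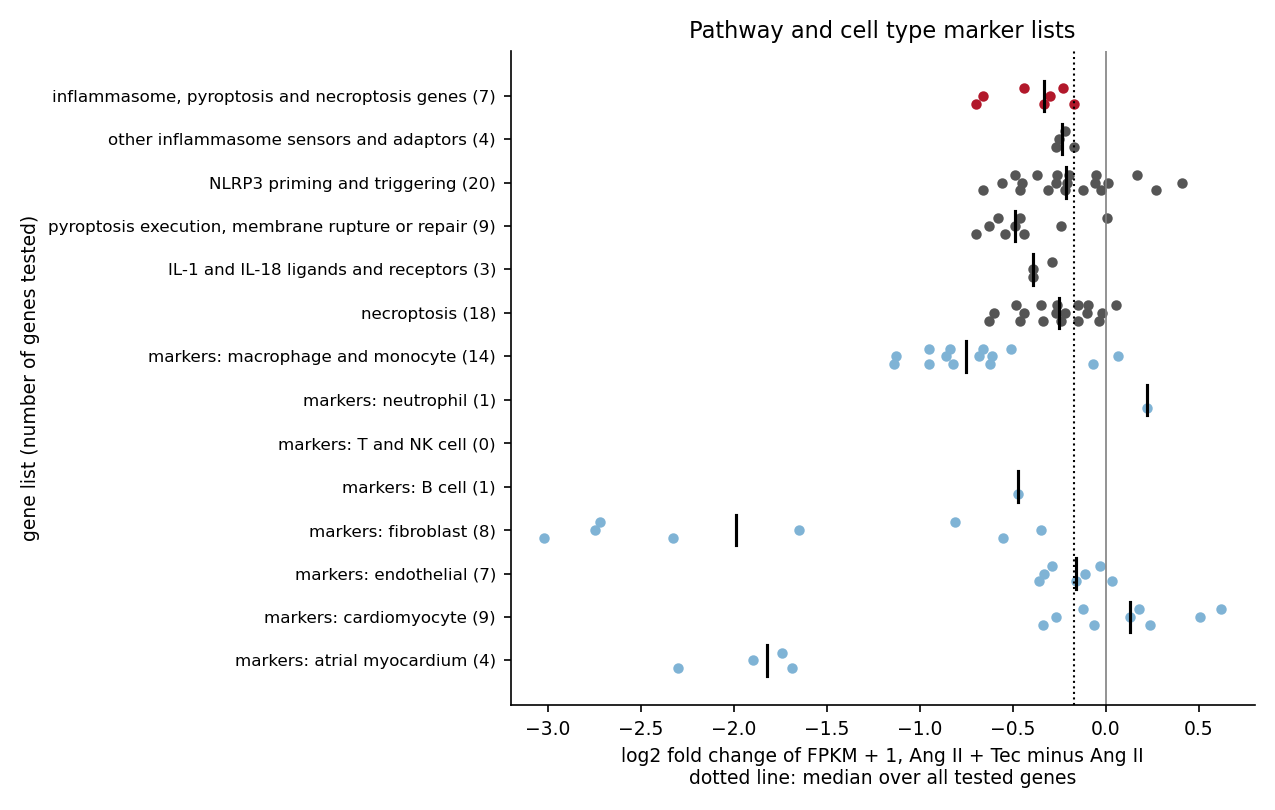
Log2 fold change of FPKM + 1, Ang II + Tec minus Ang II, of each tested gene (points) in the 9 genes examined (red), 5 pathway lists (grey) and 8 cell type marker lists (blue), with the number tested in parentheses, a black bar at each list's median and a dotted line at the median of all tested genes (-0.17). The macrophage and monocyte markers centre at -0.75, the fibroblast markers at -1.99 and the atrial markers at -1.82, and the endothelial markers lie near the dotted line.

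Most markers of macrophages and monocytes, and all those of fibroblasts, were lower with Tec too. In RNA of heart tissue, fewer cells of a type and less RNA per cell cannot be told apart. Of 15 macrophage and monocyte markers, 14 were tested, and 13 of them were lower with Tec, as were 80% of all tested genes. Of the 13, 12 had an unadjusted limma p-value under 0.05 (9 under median-ratio scaling), beside 16.5% (7.9%) of all tested genes, and 0 had an adjusted one. Among both the 12 and the 9 are Ccr2, which reached the limit for testing through the Ang II libraries alone, and Cd14, which is also in the list for NLRP3 priming. Their summed level was 378, 568 and 293 FPKM in the Ang II libraries and 201, 200 and 219 FPKM in those with Tec, with Lyz2 as the most abundant gene (mean 150 FPKM) and no marker at 0 in any library. This sum was higher in every Ang II library than in any Ang II + Tec library, as in Nlrp3, Pycard, Ripk3 and Mlkl, and in 18.9% of all tested genes. The 8 fibroblast markers were all tested and all lower with Tec, as were 80% of all tested genes, 5 of them at an unadjusted limma p-value under 0.05, beside 16.5%, and 0 at an adjusted one. Their sums were 775, 1029 and 172 FPKM in the Ang II libraries and 141, 233 and 156 FPKM in those with Tec, with Dcn as the most abundant (mean 132 FPKM) and none at 0. Here Ang II replicate 3 lay within the range of the Ang II + Tec group, as in Casp1, Aim2, Gsdmd and Nek7. The part of either cell type in the levels of the 9 genes was not tested.

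Markers of other leukocytes were low, except Ighm. Of 9 neutrophil markers, 8 were matched by symbol, and Ly6g and Mpo were at 0 in all libraries. The sum over the list was 0.48, 3.24 and 0.36 FPKM in the Ang II libraries and 3.06, 1.06 and 0.34 FPKM in those with Tec, with S100a9 as the most abundant and the only one tested, whose groups overlapped. The 9 markers of T and NK cells were all below the limit for testing and summed to 0.35 to 0.82 FPKM with Gzma as the most abundant. Of 5 B cell markers, Ighm was the most abundant and the only one tested, lower with Tec at an unadjusted limma p-value under 0.05, though not under median-ratio scaling (0.0589), and not at an adjusted one, and the list summed to 4.4, 5.13 and 4.27 FPKM in the Ang II libraries and 3.83, 3.12 and 2.58 FPKM in those with Tec. Ighm made up most of this sum, and without it the sums were 0.5, 0.48 and 0.54 FPKM in the Ang II libraries and 0.72, 0.49 and 0.31 FPKM in those with Tec, which overlap.

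Of 7 endothelial markers, all were tested and 6 were lower with Tec (3 under median-ratio scaling), beside 80% (48.2%) of all tested genes, 2 of them at an unadjusted limma p-value under 0.05, beside 16.5%, and 0 under median-ratio scaling. Their sums were 80.4, 88.6 and 79.8 FPKM in the Ang II libraries and 74.4, 79.9 and 72.7 FPKM in those with Tec, with Cdh5 as the most abundant and a median log2 fold change of -0.16 (0.017 under median-ratio scaling). Of the 9 cardiomyocyte markers, 4 were lower with Tec (2 under median-ratio scaling), beside 80% (48.2%) of all tested genes. The other 5 (7 under median-ratio scaling) were higher, 1 of them at an unadjusted limma p-value under 0.05, beside 2.09% of all tested genes. The sums were 12424, 10135 and 12607 FPKM in the Ang II libraries and 12558, 11141 and 11432 FPKM in those with Tec. Neither of these lists separated the groups by its sum. The 4 markers of atrial myocardium differed between hearts within both groups. All 4 had a negative log2 fold change, as did 80% of all tested genes, with a median of -1.82 (-1.66 under median-ratio scaling). At an unadjusted limma p-value under 0.05 there were 0 of them, beside 16.5%. They summed to 6204, 10253 and 256 FPKM in the Ang II libraries and 906, 5032 and 128 FPKM in those with Tec, most of it from Nppa. Without Nppa the sums were 636, 797 and 0.61 FPKM in the Ang II libraries and 0.29, 1544 and 2.62 FPKM in those with Tec, with Myl7 at 0 in Ang II replicate 3 and Ang II + Tec replicate 1 and Sln at 0 in the latter. Atrial transcripts were therefore high in Ang II replicates 1 and 2 and Ang II + Tec replicate 2, and their part in the levels of the 9 genes was not tested.

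Transcripts of the mitochondrial genome, which share the total that FPKM divides by, also differed between the libraries. They made up 41.3%, 40.1% and 48.9% of the summed FPKM in the Ang II libraries and 51.3%, 49.6% and 52.5% in those with Tec. The share was lower in every Ang II library than in any Ang II + Tec library. After each library was rescaled to the same sum over genes outside the mitochondrial genome, the median log2 fold change was -0.32 over the 7 genes and -0.14 over all tested genes, and 3 of the 7 genes were lower with Tec at an unadjusted limma p-value under 0.05, beside 13.6% of all tested genes.

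Promoters were read from the RefSeq windows of GRCm38.p6, 250 bases before to 50 bases after the start of transcription. There were 10 windows for 8 of the 9 genes, all but Gsdmd. On both strands the windows were searched for the core of the interferon response element, GAAANNGAA, and for the core of the GAS element, TTCNNNGAA, where N is any base. The first was in 8.56% and the second in 8.3% of all 32851 windows of this length. Among the 10 windows there was 1 match, in Ripk3, where GAAAGGGAA lay 14 bases after the start, on chromosome 14 from 55788835 to 55788843 and within the annotated gene. The windows of Ripk3 (chr14:55788808-55789107, minus strand) and Mlkl (chr8:111338156-111338455, minus strand) are shown 5′ to 3′, as those of the 2 genes with the highest correlation across hearts after Casp1 and Casp4, with the match in capitals.
Ripk3: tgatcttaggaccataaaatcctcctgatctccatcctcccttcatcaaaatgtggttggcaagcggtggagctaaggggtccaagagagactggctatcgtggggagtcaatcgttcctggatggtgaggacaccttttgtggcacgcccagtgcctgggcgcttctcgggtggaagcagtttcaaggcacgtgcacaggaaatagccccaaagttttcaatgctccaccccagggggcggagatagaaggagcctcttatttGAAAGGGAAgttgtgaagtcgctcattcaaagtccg
Mlkl: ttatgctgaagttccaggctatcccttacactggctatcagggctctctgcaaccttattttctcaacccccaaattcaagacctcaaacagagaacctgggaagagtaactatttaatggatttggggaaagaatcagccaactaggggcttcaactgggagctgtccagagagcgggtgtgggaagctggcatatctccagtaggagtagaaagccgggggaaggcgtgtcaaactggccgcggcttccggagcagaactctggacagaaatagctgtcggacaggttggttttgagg
The window of Mlkl holds neither core, which says only that these letters are not in it.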

How the data were processed

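The authors removed adapter and low-quality reads with Cutadapt, checked the rest with FastQC and deposited FPKM per gene and library, which are not counts. The submitters' processing notes name Bowtie 0.12.2, HISAT2 2.0, StringTie 1.3.0 and the build mm8, without their roles. The table's coordinates, strand included, equalled those of GENCODE release M21 (GRCm38) for 26777 of the 30832 genes in both (86.8%) and for 8 of the 9 genes examined (not Casp1), so they are given as in the table. Total fragments are unknown. The commonest low value of FPKM times length in short single-exon genes gave relative depths of 0.894 to 1.19, and the spread between hearts is the error used.

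Values of log2(FPKM + 1), from the deposited FPKM without further scaling, entered the functions lmFit and eBayes (with a variance trend) of limma 3.58.1, run under R 4.3.3, Ang II + Tec minus Ang II, with no covariate, 2-sided, and with Benjamini-Hochberg adjustment over all 13089 tested genes (at least 0.5 FPKM in at least 3 libraries). The fit was also run on simulated data, drawn independently for each gene, so these do not carry the libraries' common shifts. Genes below that limit had exact permutation tests. Ratios of group means are of FPKM. Tables and figures were made with Python 3.11.15, pandas 2.3.3, numpy 2.4.6 and matplotlib 3.10.9.

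Named were the 9 genes, 15 pathway genes listed by symbol (1 of them is not reported here), the 2 tested genes of each pathway list with the largest absolute limma t, every list gene with an adjusted p-value under 0.05, the most abundant gene of each marker list and its genes at 0 in all libraries (of the atrial list, in any), and the 5 genes most like the 7 tested. The genes, the lists and this rule were chosen with earlier results of these data known. Alternatives changed the pseudocount, the filter, the scaling, the replicate block, the variance trend and the library weights, and left out each library in turn.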

Additional observations from a re-analysis of the deposited data

How the results depend on the processing

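With the deposited FPKM, 21 genes were differentially expressed in limma. Of the 7 tested genes of the inflammasome and necroptosis set, 3 were lower with Tec at an unadjusted limma p-value under 0.05, beside 16.5% of all tested genes. The median log2 fold change over the 7 was -0.33, beside -0.17 over all tested genes. Without overlap between the groups, 3 of the 7 were lower with Tec, beside 18.9%. Leaving out 1 library gave 2 to 557 differentially expressed genes and 2 to 6 of the 7 genes at an unadjusted limma p-value under 0.05, beside 6.29% to 39.3% of all tested genes. The medians over the 7 ran from -0.53 to -0.27, beside -0.24 to -0.13 over all tested genes. Without overlap were 3 to 7 of the 7 genes, beside 19.9% to 53.7%. The highest counts and the lowest median came without Ang II replicate 3. Without a filter on low FPKM, 3 genes were differentially expressed among 27760 tested, and all 9 genes of the set were then fitted, with 3 at an unadjusted p-value under 0.05, beside 9.51% of all genes fitted, and 0 at an adjusted one (limma). With a pseudocount of 0.1 FPKM the median was -0.65, beside -0.23 over all tested genes, on a scale that compresses low values less. Library weights gave 505 differentially expressed genes and 7 of the 7 genes at an unadjusted p-value under 0.05, lower with Tec, as were 59.7% of all tested genes, and all 7 at an adjusted one, beside 59.3%. These weights came from the gene-by-gene estimate, from 0.191 to 4.46, which was chosen after seeing the data because the default estimate did not converge, and the unconverged estimate gave Ang II replicate 1 the lowest weight (0.118) where the other gave it the highest. The cause of the other changes was not tested.

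The log2 fold change of Nek7 reversed to 0.061 under median-ratio scaling and to 0.055 after quantile normalization, and that of Ninj1 to 0.0038 under median-ratio scaling, as these 2 scalings also moved the median of all tested genes, to 0.0087 and 0.02. The other tested genes of the set and of the pathway lists with a printed log2 fold change kept their direction under every alternative in which they were fitted. With the replicate block, 22 genes were differentially expressed, 3 of the 7 genes were at an unadjusted p-value under 0.05, beside 22.9% of all tested genes, and the lowest adjusted p-value among them was 0.111 (limma). Deviations from the group means correlated at -0.039, 0.429 and 0.379 between libraries of the same number, and Ang II replicate 1 correlated best with Ang II + Tec replicate 2 (0.212), so the numbers were not taken to pair the hearts. FPKM below about 0.5 rest on few fragments, which limits Nlrp3, Il1b and Il1rn among others.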
